A study of Homo sapiens with 3 samples.

Results

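The MYC and MAX network genes are a small family of basic helix-loop-helix leucine zipper transcription factor genes, taken here as 10 genes: MYC, MYCN, MYCL, MAX, MLX, MXD1, MXI1, MXD3, MXD4 and MNT. Peaks from sequencing of chromatin pulled down with an antibody against FOXM1 (ChIP-seq) were assigned to a gene where the peak summit, the base of highest enrichment, lay inside the gene or within 20 kb of it on GRCh38. This gave 31 peaks, 12 of the 8271 peaks of ChIP replicate 2 and 19 of the 11502 peaks of ChIP replicate 3. The cells were Huh7, an established human hepatocellular carcinoma line, untreated and with no genetic change named in the labels. Anti-FOXM1 antibody (G-5) was used for 2 libraries, and 1 input library without antibody was made, whose signal was not analysed here. Whether the ChIP replicates are separate cultures is not stated in the labels. Each library's own value is therefore given, with no test between them.

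MYC proteins bind DNA as heterodimers with MAX and activate genes of growth, ribosome production and metabolism. The MXD proteins, MXI1 and MNT compete for MAX and recruit SIN3 and histone deacetylases, so that they oppose MYC at the same E-box letters, CACGTG. MLX is a MAX-like partner that joins the glucose-sensing factors MLXIP and MLXIPL, of which MLXIPL (ChREBP) is known in liver for switching on glycolytic and lipid-synthesis genes. FOXM1 is a forkhead factor of proliferating cells, and MYC is among the genes it has been reported to control.

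Anti-FOXM1 peaks lay around 8 of the 10 genes but not around MYC or MAX, the genes that encode the centre of the network. Replicate 2 had peaks at 6 genes (MYCN, MYCL, MLX, MXD3, MXD4 and MNT), and 41.3% of all 19974 protein-coding genes had a replicate 2 peak by the same rule. Replicate 3 had peaks at 8 genes, the same 6 with MXD1 and MXI1, against 49.7% of all protein-coding genes. A locus was called shared where peaks of the libraries overlapped by at least 1 bp. Summits of both libraries, overlapping or not, were found at 6 members, against 36.3% of all protein-coding genes. Shared loci numbered 8 and lay at 5 genes, MYCN, MLX, MXD3, MXD4 and MNT, while 32.3% of all protein-coding genes had one. MXD3, MXD4 and MNT each had 2, and 10.7% of all protein-coding genes had 2 or more. However, 1 of the MXD3 loci lay at the start of RAB24 and 1 of the MXD4 loci at that of HAUS3. Of all protein-coding genes, 45.2% had no peak of either library by this rule, as MYC and MAX did. With only 10 genes and shares of this size, the counts are a description.

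**Figure D1:**
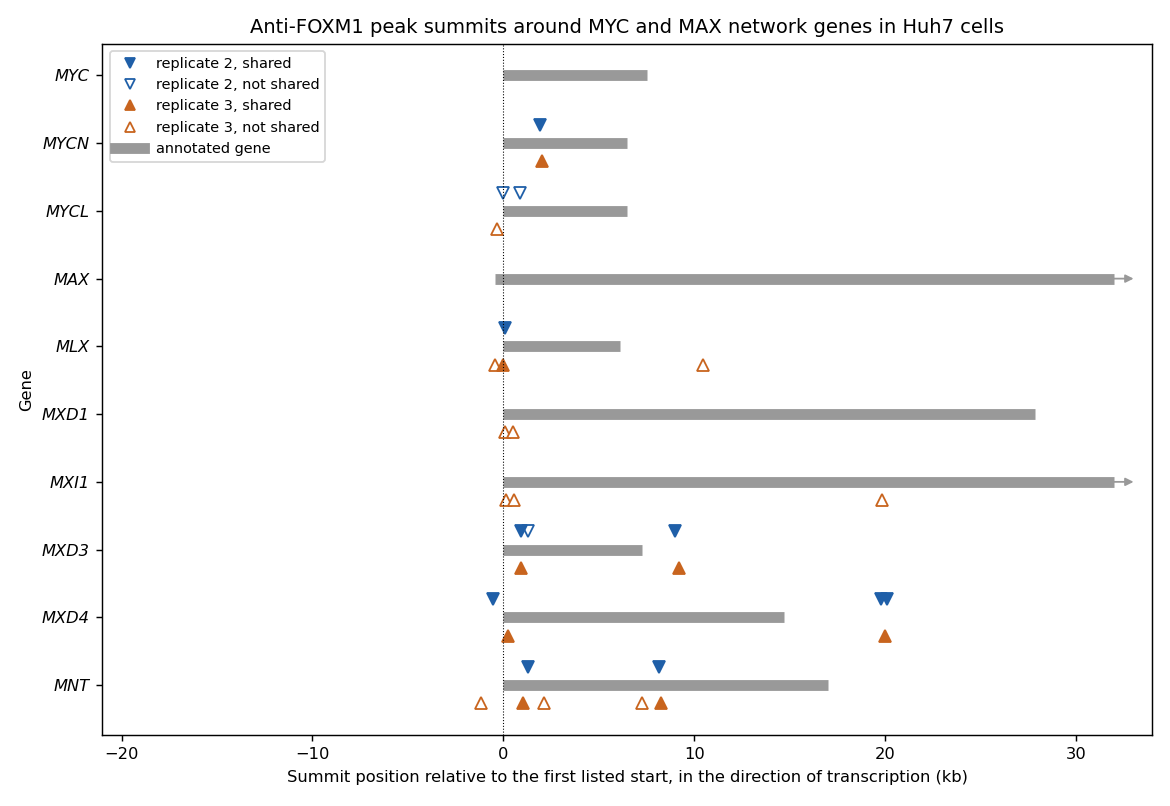
Position of each peak summit relative to the first listed transcription start of the gene, in kb along the direction of transcription. Grey bars are annotated genes, and an arrow marks a gene that runs past the right edge, where no further peak was found. Triangles pointing down are replicate 2 and those pointing up are replicate 3, filled where the peak overlapped a peak of the other library. MYC, for which no start was listed, is drawn from its lower coordinate. MYC and MAX have no symbol, and MXD1 and MXI1 have replicate 3 symbols only.

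Within 1 kb of a start of their own gene lay 5 of the 12 replicate 2 peaks and 9 of the 19 replicate 3 peaks. The share of all peaks this close to a start was not taken, so these counts are a description only. The 250 bases before the start are shown for 4 members, to set an E-box or a peak beside each start (GRCh38 sequences from RefSeq). Capitals mark the E-box CACGTG in MLX (chr17:42566850-42567099, plus strand), MXD4 (chr4:2262110-2262359, minus strand) and MNT (chr17:2401061-2401310, minus strand). In MYCL (chr1:39901918-39902167, minus strand) they mark bases under a peak of either library. Of the 250 MLX bases, 170 lay under a replicate 2 peak and 125 under a replicate 3 peak, with 125 under both. All 250 MXD4 bases lay under a replicate 3 peak and none under a replicate 2 peak. Of the MYCL bases, 100 lay under a replicate 2 peak and 42 others under a replicate 3 peak, and no MNT base lay under a peak.
MLX: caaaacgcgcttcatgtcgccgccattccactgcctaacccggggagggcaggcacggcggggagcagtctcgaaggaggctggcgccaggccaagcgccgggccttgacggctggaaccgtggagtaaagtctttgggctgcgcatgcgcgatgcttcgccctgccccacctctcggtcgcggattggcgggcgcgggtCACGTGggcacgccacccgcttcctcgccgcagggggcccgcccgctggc
MXD4: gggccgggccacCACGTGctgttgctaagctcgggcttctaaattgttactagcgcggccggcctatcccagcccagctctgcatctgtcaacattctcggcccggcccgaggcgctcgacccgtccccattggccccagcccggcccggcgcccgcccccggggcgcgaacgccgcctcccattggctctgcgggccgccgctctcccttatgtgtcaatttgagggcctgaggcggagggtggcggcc
MNT: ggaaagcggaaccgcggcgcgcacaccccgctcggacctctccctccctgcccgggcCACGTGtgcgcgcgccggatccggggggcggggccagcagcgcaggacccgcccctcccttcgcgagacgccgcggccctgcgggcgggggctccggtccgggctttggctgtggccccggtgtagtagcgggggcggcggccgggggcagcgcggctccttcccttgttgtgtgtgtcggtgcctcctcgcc
MYCL: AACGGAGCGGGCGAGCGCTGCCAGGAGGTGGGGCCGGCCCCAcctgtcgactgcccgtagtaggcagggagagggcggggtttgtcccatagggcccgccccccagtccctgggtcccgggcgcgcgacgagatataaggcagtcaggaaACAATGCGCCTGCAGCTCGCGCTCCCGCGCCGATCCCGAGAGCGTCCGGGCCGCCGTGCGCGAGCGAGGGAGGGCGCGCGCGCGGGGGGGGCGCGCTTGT

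CACGTG was searched on both strands, which read alike for these letters. The 9 members with a listed start had 12 such stretches of 250 bases, since MXI1 and MAX had several starts. It was present in 3 of the 12, at MLX, MXD4 and MNT, and in 7.37% of the 22132 stretches before starts of protein-coding genes. These 3 stretches were 71.2%, 70.4% and 78.0% GC, against a median of 62.0% and an upper quartile of 70.4% over all stretches. GC content was not matched in any comparison of letters. The MLX E-box, 50 bases before the start, lay under a peak of each library, with the nearest summits 128 bp away in replicate 2 and 46 bp away in replicate 3. The MXD4 E-box, 238 bases before the start, lay under the replicate 3 peak only. The nearest summits to it were 300 bp away in replicate 2 and 483 bp away in replicate 3. The MNT E-box, 193 bases before the start, lay under no peak. The looser pattern CANNTG, which includes CACGTG, was found in 8 of the 12 member stretches and in 58.1% of all stretches.

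Of the forkhead letters searched on both strands, TGTTTAC was found in 1 of the 12 member stretches, at MXI1, 151 bases before its second listed start, and in 2.45% of all stretches. The MXI1 match lay under no peak, with the nearest summits 202492 bp away in replicate 2 and 1904 bp away in replicate 3. TGTTTGC was found at no member and in 2.75% of all stretches. The E2F letters TTTCGCGC and TTTGGCGC were found at MYCN alone, in 0.61% and 0.687% of all stretches, and overlap each other there. TTTGAA, the core of the cell-cycle CHR element, was also found at MYCN alone (11% of all stretches), and TTCGAA at no member (1.27%). The MYCN matches to the E2F and CHR letters lay under no peak of either library. The GC box GGGCGG was found in 11 of the 12 member stretches (53.7% of all stretches) and CCAAT in 4 of the 12 (32.7%). These are matches of letters in the stretches before starts, and the sequence under peaks elsewhere was not used here.

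MYC, the proto-oncogene on chromosome 8 (127735434 to 127742951), had no peak inside or within 20 kb in either library. The nearest summit was 51585 bp away in replicate 2 and 2196747 bp away in replicate 3. The lists hold only peaks past a q threshold of 0.05, so weaker enrichment at MYC would not appear in them. Where the local background was 5 fragments, the fewest fragments over any called summit were 19 in each library.

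MYCN, known from neuroblastoma and from fetal tissues, carried 1 shared locus. Its peak had fold enrichment over local background of 3.92 in replicate 2 and 4.88 in replicate 3, both the authors' own values. Both summits fell within MYCN (chromosome 2, 15940550 to 15947004), 1915 bp past the start in replicate 2 and 2046 bp past it in replicate 3. The nearest listed start was that of MYCNOS, the antisense non-coding gene of the opposite strand, 32 bp from the replicate 2 summit and 163 bp from the replicate 3 summit, which both lay before it. Both peaks were 147 bp wide and they shared 47 bp. The deposited −log10 q was 2.97 and 5.50, so that the replicate 2 call was the weaker, although both folds were above the medians of all peaks in their libraries (3.76 and 3.78). The next summits were far off, 4065462 bp away in replicate 2 and 1592016 bp away in replicate 3.

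MYCL, the family member first described in lung cancer, was called in both libraries at different places. Replicate 2 had a peak 25 bp before the start, with fold 3.87, and a second 849 bp past it, with fold 4.14. Replicate 3 had 1 peak, 341 bp before the start, with fold 4.36. The closest peaks of the libraries stood 108 bp apart and their summits 316 bp apart, so the gene (chromosome 1, 39895428 to 39901917) had no shared locus. All 3 peaks had −log10 q above 5, at 5.97 and 5.14 in replicate 2 and 6.06 in replicate 3. These values exceeded those of the MYCN, MLX and MNT shared loci in the same library.

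MAX, the shared dimer partner on chromosome 14 (65006101 to 65102695), had no peak by the rule and was the longest of the 10 genes, at 96595 bp. The nearest summit was 309847 bp away in replicate 2. In replicate 3 it was 33732 bp away, with fold 4.81. MLX, the MAX-like partner (chromosome 17, 42567100 to 42573203), had a shared locus over its start. The summits were 78 bp past the start in replicate 2, with fold 3.59, and 4 bp before it in replicate 3, with fold 3.50. These calls were weak in −log10 q, at 2.46 and 2.55, and rested on 20 and 19 fragments. Replicate 3 also had a peak 428 bp before the MLX start, with fold 3.68. Its summit was 395 bp from COASY, the coenzyme A synthase gene, although the nearest listed start was that of MLX. A further replicate 3 peak lay inside PSMC3IP, a gene of meiotic recombination. Its summit was 162 bp past the PSMC3IP start and 10467 bp from the MLX start. This peak had fold 2.92 and −log10 q of 1.64, the lowest −log10 q among the 31 peaks.

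**Figure D2:**
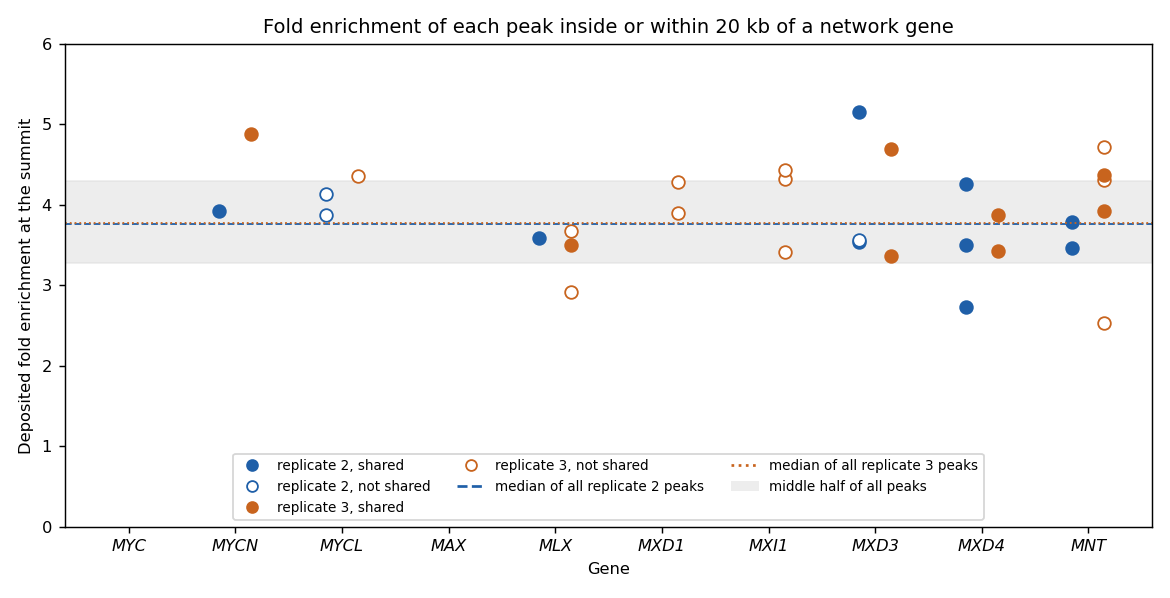
Deposited fold enrichment at the summit (linear ratio over local background) of every peak inside or within 20 kb of each gene. Blue points are replicate 2 and orange points replicate 3, filled where the peak overlapped a peak of the other library; lines are the medians of all peaks (3.76 and 3.78) and the grey band runs between their lower and upper quartiles (3.28 to 4.30). The highest points are MXD3 in replicate 2 (5.16) and MYCN in replicate 3 (4.88).

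Among the MAX-binding antagonists of MYC, MXD1 and MXI1 were called in replicate 3 only. MXD1, which rises in differentiating cells, had peaks 88 bp and 523 bp past its start (chromosome 2, 69915109 to 69942945), with folds of 3.90 and 4.29. MXI1 had peaks 135 bp and 571 bp past its first start (chromosome 10, 110207605 to 110287365), with folds of 4.32 and 3.41. A further MXI1 peak lay 1417 bp past the last of its listed starts, with fold 4.44. The fragments over these 5 summits numbered 16 to 25. In replicate 2 the nearest summits were 182295 bp from MXD1 and 200017 bp from MXI1. Among all protein-coding genes 13.5% had a peak in replicate 3 and none in replicate 2 by the same rule.

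MXD3, an antagonist known for expression in S phase, had 2 shared loci, of which 1 lay in the gene (chromosome 5, 177305499 to 177312752). There the summits were 940 bp past the start in replicate 2 and 937 bp in replicate 3, which at 3 bp apart was the closest agreement among the 8 loci. The folds were 3.54 and 3.37. A further replicate 2 peak, 1297 bp past the start, had fold 3.56 and no overlap in replicate 3. The other shared locus lay beyond the far end of MXD3 and was the strongest of the 8, with fold 5.16 in replicate 2 and 4.70 in replicate 3 and −log10 q of 8.10 and 7.05. Its summits were 38 bp before and 181 bp past the start of RAB24, a Rab GTPase gene, and 8995 bp and 9214 bp from the MXD3 start. The lower of its folds exceeded that of 93.7% of all shared loci.

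MXD4 also had 2 shared loci. At its start (chromosome 4, gene at 2247432 to 2262109) replicate 2 had a peak with its summit 533 bp before the start and fold 4.26, and replicate 3 a peak 1291 bp wide with its summit 250 bp past the start and fold 3.88. These overlapped by 363 bp, but their summits stood 783 bp apart, the widest gap among the 8 loci. The locus beyond the far end lay at the start of HAUS3, a gene of the augmin complex of spindle microtubules, inside or beside the DNA polymerase gene POLN. There replicate 2 had 2 peaks, with folds of 2.73 and 3.50, under a single replicate 3 peak of fold 3.43. The local backgrounds at this locus were the highest at any of the shared loci, at 8.00 and 8.91 fragments at the leading summits, against a median of 5.00 over all peaks of each library.

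MNT, the MAX-binding repressor present in both resting and growing cells, had the most peaks, with 2 in replicate 2 and 5 in replicate 3. The shared locus nearest the start (chromosome 17, gene at 2384073 to 2401060) had summits 1285 bp past it in replicate 2, with fold 3.46, and 1055 bp past it in replicate 3, with fold 3.93. The second lay deep in the gene, 8141 bp and 8284 bp past the start, with folds of 3.79 and 4.37. The other replicate 3 peaks had summits 1155 bp before the start (fold 4.72), 2146 bp past it (4.31) and 7251 bp past it (2.53). The last of these was the lowest fold among the 31 peaks and stood over a background of 9.0 fragments. The summits nearest the MNT start lay just beyond 1 kb from it in each library.

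A summit within 1 kb of a listed start also meets the 20 kb rule, so counts at the start could not be higher. Of the 9 members with a listed start, 4 had a replicate 2 summit within 1 kb of one (MYCL, MLX, MXD3 and MXD4), against 27.1% of 15812 protein-coding genes with a listed start. In replicate 3 it was 6, with MXD1 and MXI1 added, against 34.4%. Summits of both libraries within 1 kb of a start were found at the same 4 as in replicate 2, against 22.4%. A shared locus with both summits within 1 kb was found at 3 members, MLX, MXD3 and MXD4, against 20.5%. The farthest peak that the 20 kb rule included was 5443 bp from its gene, at MXD4, with fold 2.73, and the nearest it left out was 30588 bp from MLX, inside NAGLU, with fold 3.42. No peak therefore stood close to the limit of the rule.

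Median fold enrichment at the member peaks was near that of the whole lists. The median was 3.69 over the 12 peaks of replicate 2, against 3.76 over all its peaks, and 3.93 over the 19 peaks of replicate 3, against 3.78. In replicate 2, 6 of the 12 exceeded the median of all its peaks and 1 the upper quartile (4.27). In replicate 3, 12 of the 19 exceeded the median and 8 the upper quartile (4.30). In replicate 2, 9 of the 12 peaks overlapped a peak of replicate 3, against 69.4% of all replicate 2 peaks. In replicate 3, 8 of the 19 overlapped a peak of replicate 2, against 49.5%. The highest folds, 5.16 and 4.88, were below the highest in each list, 8.09 and 9.58.

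Whole fragment counts over each summit, rebuilt from the deposited fold and p, were 20 to 38 in replicate 2 and 16 to 38 in replicate 3. At the shared MYCN locus they were 20 (exact 95% Poisson interval 12.2 to 30.9) in replicate 2 and 24 (15.4 to 35.7) in replicate 3. At the locus near RAB24 they were 34 (23.5 to 47.5) and 32 (21.9 to 45.2). At the MXD4 start they were 38 (26.9 to 52.2) and 36 (25.2 to 49.8). The intervals of the libraries overlapped at all 8 shared loci, and fold was higher in replicate 2 at 5 loci and in replicate 3 at 3. The loci were chosen for a call in both libraries, the counts are not scaled for depth, and no test between the libraries was made. The intervals cover counting error only.

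**Figure D3:**
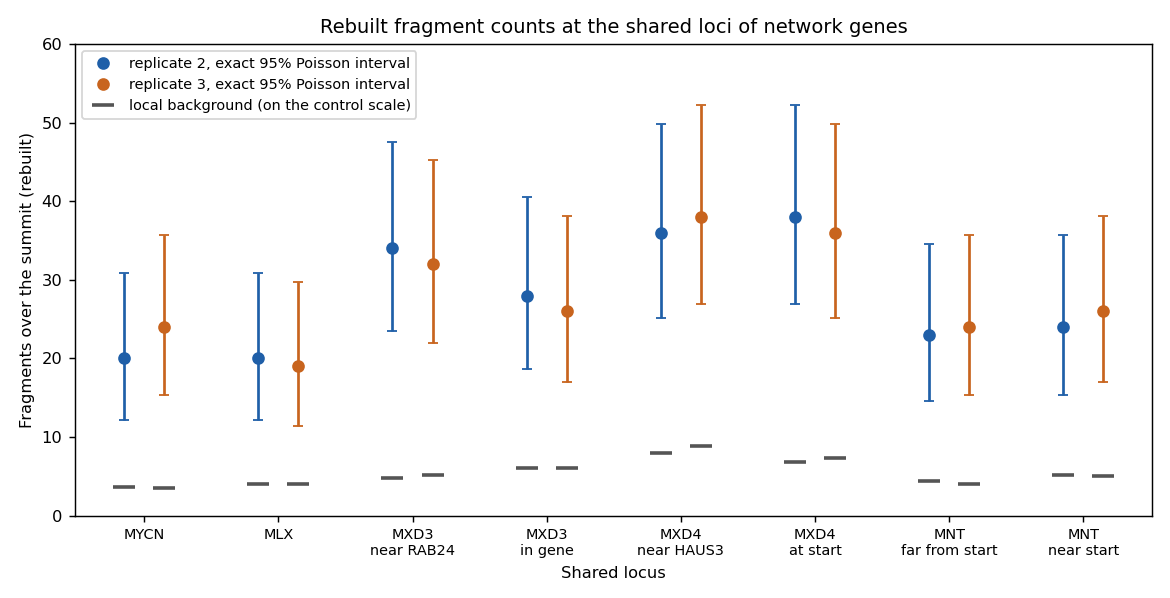
Rebuilt fragment counts over the leading summit of each library at the 8 shared loci, with exact 95% Poisson intervals, and the local background as grey dashes on the scale of the control. Blue is replicate 2 and orange replicate 3. Counts run from 19 to 38 fragments, and the intervals of the libraries overlap at every locus.

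The genes around the network were described by the same rule, in lists chosen with earlier results of these data known. Of the 3 remaining MAX or MLX partners, MLXIPL had a shared locus inside the gene (chromosome 7, 73593202 to 73647907), 73 bp from its nearest listed start, with fold 5.17 in replicate 2 and 4.52 in replicate 3. Each exceeded the fold of every peak within 1 kb of a network gene's own start in the same library. MLXIP had 1 peak in replicate 3 alone, with fold 4.16, and MGA, a large MAX partner that represses, had none.

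Of 23 cofactor and regulator genes of MYC, 17 had a shared locus inside or within 20 kb (73.9%), against 32.3% of all protein-coding genes. The leading genes were USP28, a deubiquitinase that stabilises MYC (fold 5.17 and 5.19), EP400 of the TIP60 complex (4.99 and 5.03), and HDAC1 (5.26 and 4.40). They were followed by SIN3A, the corepressor scaffold of the MXD proteins (4.34 and 4.96), and CDK9, the kinase of transcription elongation (4.30 and 5.01). The locus counted for EP400 lay 19948 bp from the gene, nearest PUS1, and that counted for HDAC1 lay nearest MARCKSL1. With both summits required within 1 kb of a listed start, 7 of the 17 cofactor genes that had one carried a shared locus, against 20.5% of all protein-coding genes. In 12 of the 17 genes with a shared locus by the 20 kb rule, the strongest shared locus had the listed gene as its nearest protein-coding gene.

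Of 33 genes that MYC is known to activate, 22 had a shared locus (66.7%). ODC1, the polyamine synthesis enzyme, led with folds of 6.89 and 6.41, followed by the translation initiation gene EIF4A1 (5.54 and 5.19) and UBTF, a factor of ribosomal RNA transcription (4.37 and 4.59). NOP16 (4.67 and 4.35) and RCC1 (4.99 and 4.33) came next, although the NOP16 locus lay 18184 bp from the gene, nearest ARL10. The neighbours HSPD1 and HSPE1 shared a locus, so that the strongest loci of the 22 genes were 21 distinct ones, and for 12 of the 22 genes the listed gene was the nearest. With both summits required within 1 kb of a listed start, 11 of the 28 activated genes that had one carried a shared locus, against 20.5% of all protein-coding genes. LDHA, TERT, PPAT and EIF2S1 had no peak of either library. Of 4 genes that MYC is known to repress, NDRG1 had a shared locus (5.18 and 5.44), CDKN2B and GADD45A had replicate 3 peaks only, and CDKN1A had none. The median number of shared loci was 1 per gene in the cofactor and the activated lists, 0.5 among the 10 network genes and 0 among all protein-coding genes. Gene density and promoter type were not matched, and no test was made. Since the lists were chosen with earlier results of these data known, their shares are a description only.

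**Figure D4:**
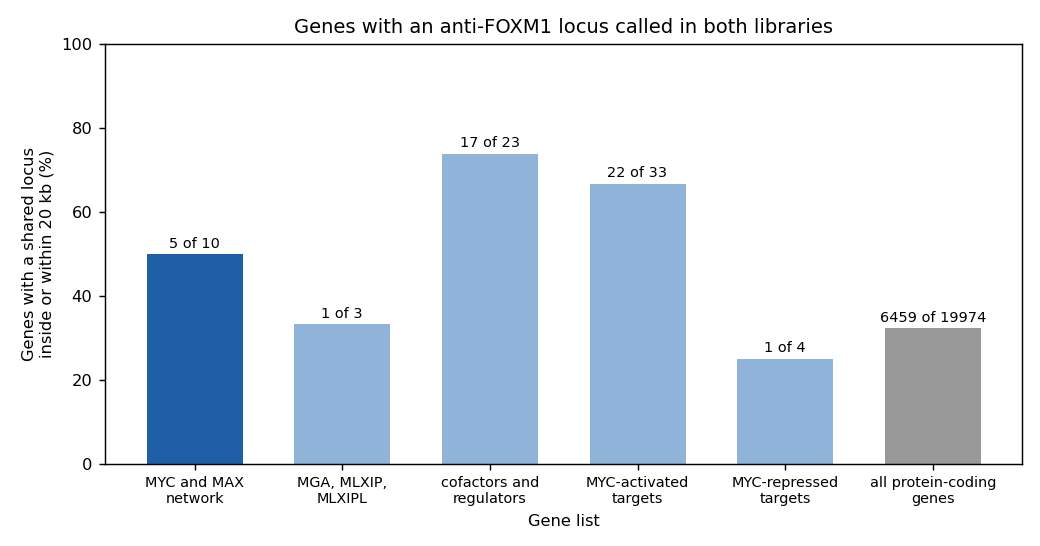
Share of genes with a shared locus inside or within 20 kb, in percent, for the 10 network genes (dark blue), 4 lists of related genes (light blue) and all protein-coding genes (grey), with counts above the bars. The network genes stand at 50%, cofactors at 73.9%, activated targets at 66.7% and all genes at 32.3%. The lists were chosen with earlier results of these data known.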

How the data were processed

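The submitters' processing notes name GRCh38, MACS2 2.2.7.1, BWA and CASAVA 1.4, without role or order; for filters and the control library nothing was given in the sources used here. The authors deposited 1 list of peaks and 1 of summits per ChIP library, with a fold enrichment (linear ratio, pseudocount 1), −log10 p and −log10 q at each summit; the deposited score (−log10 q times 10) was not used, and the deposited summit offset of another unit gave the position. Coordinates are 1-based. Genes came from RefSeq (GRCh38.p14): 19974 protein-coding genes on chromosomes 1 to 22 and X; all 10 members matched. Listed starts and promoters were held for 9 members, since none was listed on chromosome 8, where MYC lies. Shares over genes with a listed start therefore leave out that chromosome.

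Fragment counts and backgrounds were rebuilt from fold and −log10 p, within 0.001, for 100% of peaks (1.10% and 1.18% with p shuffled), at scales of 0.848 and 0.869. Of peaks simulated with the same formula and scales, 100% had the exact count, which checks the solving step alone. Summits held a median of 26 and 24.5 fragments. A shared locus counted for a gene where the leading summit of each library lay in its window. All members were named; the related lists gave up to 5 genes each by the lower fold. Members and lists were chosen with earlier results of these data known. Windows, thresholds, overlap rules and single libraries were tried as alternatives. The antibody's specificity was not tested, and no library from cells without FOXM1 was used. Python 3.11.15, numpy 2.4.6, pandas 2.3.3, SciPy 1.17.1 and matplotlib 3.10.9 were used; overlaps were checked with bedtools 2.31.1 (difference 0).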

Additional observations from a re-analysis of the deposited data

How the results depend on the processing

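The 5 genes with a shared locus (MYCN, MLX, MXD3, MXD4 and MNT) were the same with windows of 1, 5 and 50 kb, while the share of all protein-coding genes was 23.1%, 25.5% and 41.6%. With −log10 q of at least 5, peaks were left at 3 members in replicate 2 and 5 in replicate 3. The 3 shared loci left counted for 2 members (MXD3 and MXD4, against 8.89% of all genes). They lay at the starts of RAB24, HAUS3 and MXD4. With fold of at least 4, replicate 2 had peaks at 3 members and replicate 3 at 6. Of the shared loci 1 was left, counted for 1 member (MXD3, against 11.7% of all genes), and it lay at the start of RAB24. The shared locus inside MXD3 passed neither threshold. For the counts in each library alone at these thresholds, no share of all genes was taken. With summits within 100 bp, 2 loci at 2 members (MLX and MXD3) were shared (21% of all genes), and with reciprocal overlap of at least 50%, 3 loci at the same 2 members (22.5%). Fewer peaks can pass each of these. The percentages under thresholds and overlap rules were added after seeing the data. With a library left out, 6 to 8 members had a peak in the other, against 41.3% to 49.7% of all genes. Counting only peaks nearest to the member left 6 loci at the same number of members, 5. No paired analysis was possible because the peak lists form a single group and enter no test between groups. Summits of 16 to 38 fragments limit the detection of weak peaks.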

Other observations

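The nearest peak to MYC, outside the 20 kb rule, lay at the edge of its non-coding neighbour PVT1, a long RNA gene often gained together with MYC in tumours. The replicate 2 summit (chromosome 8, peak 127794445 to 127794647) was inside PVT1, 12 bp from its annotated end on the MYC side. Its fold was 4.17 and its −log10 q 5.76, on 31 fragments (exact 95% Poisson interval 21.1 to 44.0). No replicate 3 peak overlapped it, and the nearest replicate 3 summit to MYC was 2196747 bp away.

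The nearest peak to MAX, called in replicate 3 alone (chromosome 14, peak 64972283 to 64972479), had its summit 33 bp outside an end of the Rab GTPase gene RAB15, within the readthrough gene CHURC1-FNTB. Its fold of 4.81 exceeded that of 89.4% of replicate 3 peaks, and it rested on 21 fragments.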
